A study of Sus scrofa domesticus with 6 samples.

Results

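Oxidative phosphorylation is carried by subunits from 2 genomes, and both sets were followed here in the small intestine of irradiated minipigs. Genes were taken by symbol: the NDUFA, NDUFB, NDUFC, NDUFS and NDUFV families without the NDUFAF assembly factors, SDHA to SDHD, UQCR, the nuclear COX subunits, CYC1, CYCS, ATP5, and the protein genes of the mitochondrial genome. The rule found 85 of the 30352 named genes, of which 13 are mitochondrially encoded and 72 nuclear encoded. All 13 mitochondrial and 70 of the nuclear genes passed the filter on low counts. The other 2, COX8H and a second entry named NDUFA4, had no count in any library. ATP5S and ATP5SL match the rule by name and are not subunits of ATP synthase itself. Members of complexes III and IV that the annotation lists under a LOC identifier, such as cytochrome c1, are outside the rule.

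The respiratory chain passes electrons from NADH and succinate through complexes I to IV to oxygen and pumps protons, and complex V uses the proton gradient to make ATP. Complex II is wholly nuclear encoded, whereas complexes I, III, IV and V each combine subunits from both genomes, most of them nuclear encoded. Absorptive enterocytes and smooth muscle, both abundant in gut wall, depend on this system for transport and contraction.

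RNA sequencing was done on the small intestine of wild type Göttingen minipigs, 6 months old, with tissue collected on day 14. IR_Pra animals had 15 Gy of cobalt gamma rays to the abdomen and were given pravastatin, a cholesterol-lowering statin, by mouth at 40 mg per day in divided doses over 2 weeks. IR animals had the 15 Gy alone, and control animals were not irradiated. Each group held 2 animals, so p-values measure the spread between these 6 animals.

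Library totals lay between 48587645 and 73968471 counts. The epithelial markers of the labelled tissue were present, with 11 of 12 listed genes found and none at 0 in any library. Their summed level in CPM, counts scaled to library size with TMM factors, was 19570 and 17840 in IR_Pra, 13610 and 1093 in IR, and 24900 and 24950 in control. Library IR 2 therefore held far fewer epithelial transcripts than any other, and IR 1 and IR 2 stood apart from each other. Summed smooth muscle markers, 10 of 10 found, were 22160 and 14910 CPM in IR_Pra, 34100 and 72920 CPM in IR, and 6493 and 13270 CPM in control. Summed macrophage markers, 10 of 10 found, were 1294 and 1924 CPM in IR_Pra, 3650 and 3992 CPM in IR, and 767.2 and 784.2 CPM in control. Since the tissue was sequenced whole, fewer cells of a type and less RNA per cell cannot be told apart.

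Per transcript length, the mean of every mitochondrial gene except ND6 exceeded that of every nuclear gene of the set in control tissue. COX3, a core subunit of cytochrome c oxidase, had 18820 ± 4216 FPKM (fragments scaled to transcript length and library size, SD, n = 2), and COX1, its catalytic subunit, had 16330 ± 1435 FPKM. These 2 levels did not differ beyond their spread. COX2 followed with 9469 ± 5223 FPKM, and ND6, the only subunit here encoded on the other DNA strand, was lowest with 36.8 ± 15.5 FPKM. Among nuclear genes ATP5E, the epsilon subunit of the ATP synthase head, was highest with 538.1 ± 12.6 FPKM, the catalytic beta subunit ATP5B had 357.1 ± 31.9 FPKM, and NDUFA4L2, a hypoxia-inducible relative of NDUFA4, was lowest with 1.81 ± 0.80 FPKM.

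The 13 mitochondrial genes took 5.31% and 5.90% of counts in IR_Pra, 3.91% and 1.48% in IR, and 8.35% and 5.87% in control. Both IR libraries lay below the other 4. The nuclear genes took 0.820% and 0.811% of counts in IR_Pra, 1.11% and 0.678% in IR, and 0.737% and 0.797% in control, so IR 1 was the highest library and IR 2 the lowest. Wilson 95% intervals reached at most 0.00713 percentage points to either side and cover counting error only. The ratio of summed mitochondrial to summed nuclear counts was 6.47 and 7.28 in IR_Pra, 3.52 and 2.18 in IR, and 11.3 and 7.37 in control. The 3 groups did not overlap in this ratio, although the lower control and the higher IR_Pra library were close. With 2 animals against 2, the smallest two-sided exact permutation p is 0.333, so no test is given for these shares.

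**Figure D1:**
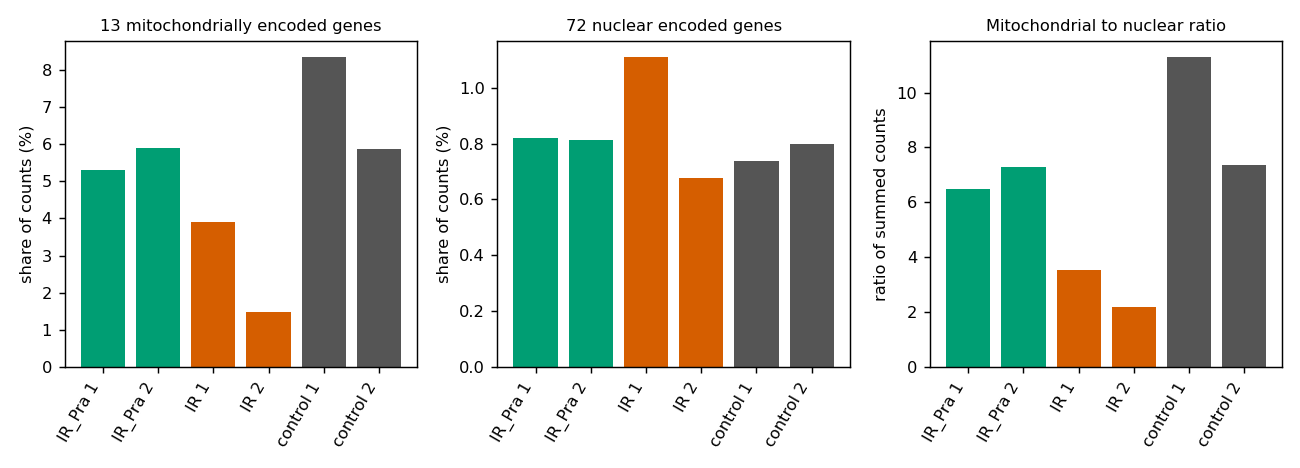
Share of counts taken by the mitochondrially encoded genes (left, %), by the nuclear encoded genes (middle, %) and the ratio of their summed counts (right), with 1 bar per library. The IR bars are lowest on the left and right (ratios 3.52 and 2.18), and the IR libraries are the highest and the lowest in the middle.

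The comparison of IR with control asked how the transcripts of the respiratory chain stood on day 14 in abdominally irradiated animals. Log2 fold changes were below 0 for all 13 mitochondrial genes (median -1.51, range -2.85 to -0.71), beside a median of 0.03 over all 18197 genes tested. Of these, ND4L passed the test (adjusted p under 0.05), which makes 1 lower and 0 higher of 13, in a comparison where 6.06% of all genes tested passed, 3.39% higher and 2.68% lower. An unadjusted p under 0.05 was found for 5 of the 13, all lower, against 30.2% of all genes tested in either direction and 13.8% lower. In 8 of the 13 both IR libraries lay below both controls, against 30.0% of all genes tested. Without IR 1 the median was -2.54 and 11 genes were called lower, against 13.1% of all genes in that fit. Without IR 2 the median was -0.84 and 2 were called lower, ND4L and ND5, against 8.93%. DESeq2 called 6 lower with all libraries, against 10.4%, and limma voom called 2, against 2.33%. Signs depended on single libraries too: without control 1, ND1 (0.47), COX2 (0.10) and ATP8 (0.74) were above 0, and without IR 2 COX2 was (0.04). The summed epithelial markers, which were 13610 and 1093 CPM in IR against 24900 and 24950 CPM in control, were low in the same libraries. The single markers differed in IR 1, where 7 of 11 lay below both controls and 4 above both. In IR 2 all 11 lay below both. The part of these markers in the result was not tested.

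Complex I takes electrons from NADH, and 7 of its core membrane subunits are mitochondrially encoded. ND4L, a small subunit of its membrane arm (mitochondrial genome, Sscrofa11.1, MT, 11069 to 11365), had 494.4 and 385.6 CPM in IR_Pra, 58.64 and 75.61 CPM in IR, and 528.2 and 439.2 CPM in control. Both IR libraries were low and alike, and neither overlapped another group. ND4L fell by 2.85 ± 0.32 (log2, SE) in IR against control, with an adjusted p of 0.0359 in edgeR's quasi-likelihood test. Without control 1 the adjusted p was 0.238, without control 2 it was 0.177, and without IR_Pra 1 or IR_Pra 2 it was 0.101, while without IR 1 it was 0.00452 and without IR 2 it was 0.0148. With any 1 of the control or IR_Pra libraries left out, 0 of all genes tested passed.

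ND5, a proton-pumping subunit at the far end of the membrane arm, had 1542 and 1072 CPM in IR_Pra, 550.8 and 402.7 CPM in IR, and 2401 and 1638 CPM in control. Its 3 groups did not overlap. The log2 fold change of IR against control was -2.08 ± 0.45 (adjusted p = 0.0537), just short of the threshold. ND4, another pumping subunit, had 4154 and 4298 CPM in IR_Pra, 2015 and 1006 CPM in IR, and 4332 and 4251 CPM in control, and did not pass (-1.51 ± 0.59, adjusted p = 0.156). ND4L shares a transcript and 7 bases with ND4, yet the ratio of their counts was 0.119 and 0.0897 in IR_Pra, 0.0291 and 0.0752 in IR, and 0.122 and 0.103 in control. The IR libraries thus had the lowest ND4L per ND4. The sources used here do not say how reads in shared bases were assigned.

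ND1, which lines the quinone site of complex I, separated the libraries differently. It had 857.8 and 823.1 CPM in IR_Pra, 2118 and 187.3 CPM in IR, and 4088 and 893.7 CPM in control. ND2, a pumping subunit, had 1239 and 1143 CPM in IR_Pra, 1994 and 236.5 CPM in IR, and 4350 and 1403 CPM in control. For both genes control 1 was highest, IR 1 came next and IR 2 was lowest, so IR and control overlapped. ND3, a small core subunit, had 584.0 and 774.9 CPM in IR_Pra, 738.3 and 137.2 CPM in IR, and 1280 and 736.9 CPM in control, with IR 1 just above control 2. ND6 had 21.43 and 8.07 CPM in IR_Pra, 8.75 and 4.82 CPM in IR, and 26.46 and 14.11 CPM in control. ND6 overlaps ND5 by 17 bases on the opposite strand, and with strand use in counting not given, reads from that stretch cannot be told apart.

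CYTB, the mitochondrially encoded core of complex III, had 3803 and 3948 CPM in IR_Pra, 2391 and 858.5 CPM in IR, and 7018 and 4161 CPM in control. Its groups did not overlap, and the log2 fold change of -1.78 ± 0.72 did not pass (adjusted p = 0.165). In complex IV, which reduces oxygen, COX1 had 20460 and 24000 CPM in IR_Pra, 14750 and 6110 CPM in IR, and 28140 and 24430 CPM in control. COX1 was lower in both IR libraries than in the other 4, with a wide error (-1.33 ± 1.14, adjusted p = 0.464). COX2, which accepts electrons from cytochrome c, had 3948 and 4064 CPM in IR_Pra, 6993 and 1299 CPM in IR, and 9506 and 4101 CPM in control. COX3 had 10080 and 13300 CPM in IR_Pra, 11610 and 3581 CPM in IR, and 17940 and 12810 CPM in control. In COX2 the IR and control groups overlapped, since IR 1 lay between the controls.

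In complex V, ATP6, which forms the proton channel, had 2479 and 2689 CPM in IR_Pra, 1552 and 517.7 CPM in IR, and 3155 and 2864 CPM in control, with no overlap of the groups (-1.54 ± 0.63, adjusted p = 0.17). ATP8, a small membrane subunit whose gene overlaps ATP6 by 43 bases, had 122.6 and 77.5 CPM in IR_Pra, 317.4 and 36.2 CPM in IR, and 930.7 and 112.8 CPM in control. Control 1 and IR 1 again stood above the rest. The ratio of ATP8 to ATP6 counts was 0.0495 and 0.0288 in IR_Pra, 0.205 and 0.0700 in IR, and 0.295 and 0.0394 in control. The ratio of ND1 to COX1 counts likewise was 0.0419 and 0.0343 in IR_Pra, 0.144 and 0.0307 in IR, and 0.145 and 0.0366 in control, so these 2 ratios were high in control 1 and IR 1 and low in the other 4 libraries. The mix of IR 1 and control 1 differed elsewhere: of the mitochondrial counts, ND4L took 0.130% in IR 1 and 0.631% in control 1. Nuclear copies of mitochondrial sequence could share reads with any of these 13 genes.

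**Figure D2:**
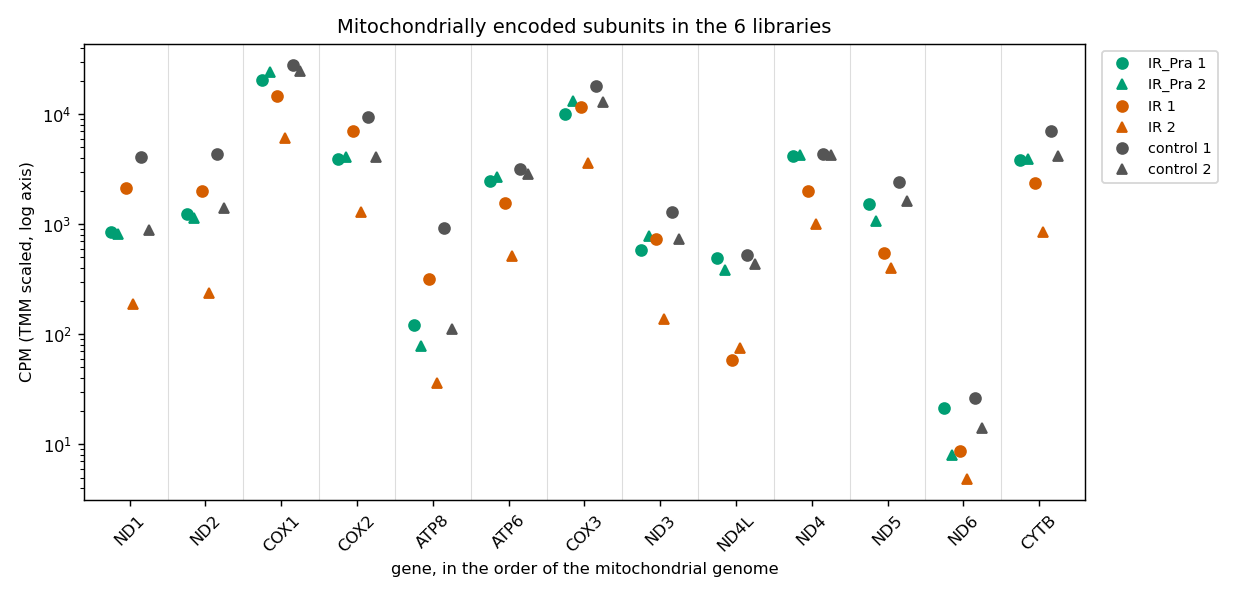
CPM on a log axis for each mitochondrially encoded gene, in genome order, with 1 point per library coloured by group. IR 2 is lowest for every gene except ND4L, where IR 1 is lower (58.64 against 75.61 CPM), and control 1 stands high for ND1, ND2 and ATP8.

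The nuclear genes did not follow the mitochondrial ones. The log2 fold change of IR against control was above 0 in 63 of the 70 (median 0.42, range -0.68 to 1.21), while 51.3% of all genes tested were positive. None of the 70 passed the edgeR test in either direction, beside 6.06% of all genes tested; 12 had an unadjusted p under 0.05, all higher, against 16.4% of all genes tested. DESeq2 called 5 of them higher, against 12.3% of all genes, and limma voom 0, against 2.79%. In 23 genes (32.9%) both IR libraries lay above both controls, and in 1 below them, against 29.8% and 30.0% of all genes tested, so the share of separated higher genes was near the background.

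The nuclear median rested on library IR 1. Against the control mean, the median of the 70 genes was -0.00 and 0.06 (log2) in IR_Pra 1 and IR_Pra 2, 0.83 in IR 1, and -0.11 in IR 2. In IR 1 66 of the 70 genes exceeded both controls, whereas in IR 2 23 exceeded both and 41 lay below both. Without IR 2 the median fold change was 0.82 and the test called 36 nuclear genes higher, against 8.59% of all genes in that fit. Without IR 1 it was -0.11 with 1 called higher and 7 lower, against 15.1% and 13.1%. The 13 mitochondrial genes had medians of -0.51 and -0.45 in IR_Pra 1 and IR_Pra 2, -0.83 in IR 1, and -2.54 in IR 2. They were thus low in both IR libraries and, by less, in both IR_Pra libraries. Of the 13, 10 lay below both controls in each IR_Pra library, 8 in IR 1 and 13 in IR 2.

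Transcript length moved with this result. Length was derived for each gene from the deposited counts and FPKM values, and was not read from the annotation. The median transcript was 738 nt for the nuclear genes, 820 nt for the mitochondrial genes and 3091 nt for all genes tested. In IR 1 the log2 ratio to control fell with length across all genes (Spearman -0.35, a description, since genes are not independent), and the 863 other genes under 800 nt had a median of 0.61, beside 0.91 for the 38 nuclear members under 800 nt. With the length trend of each library removed, the nuclear median of IR against control was 0.06, with 42 of 70 positive. The mitochondrial median was -1.87, with 13 of 13 negative. The nuclear median in IR 1 was then 0.24, and the mitochondrial median in IR 1 was -1.24. On log2(FPKM + 1), which has no TMM scaling, the nuclear median was 0.27 (51 of 70 positive), beside -0.04 over all genes. Scaling to library size alone gave 0.29 (55 of 70 positive), beside -0.06 over all genes.

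**Figure D3:**
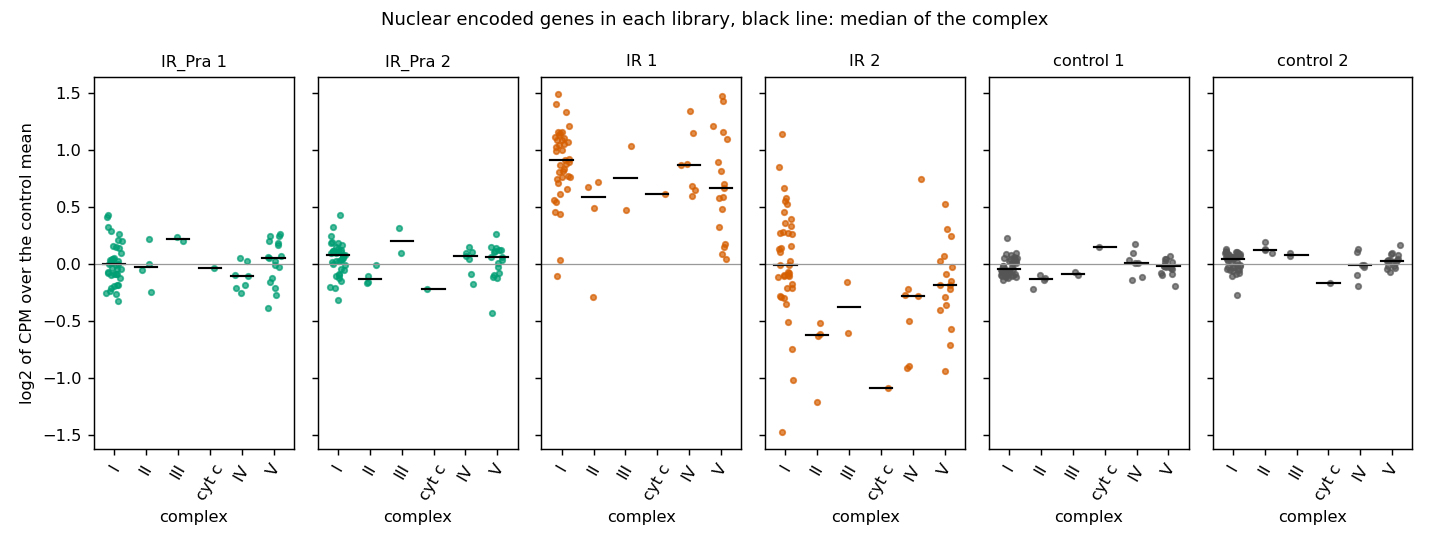
Log2 ratio of CPM to the control mean for each nuclear encoded gene (points), by complex and with 1 panel per library; the black line is the median of the complex. The points of IR 1 lie mostly above 0 (median over all 70 genes 0.83), those of IR 2 lie on both sides (median -0.11), and the 4 other libraries stay close to 0.

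Complex I genes were counted by name, so NDUFA4 and NDUFA4L2 are among them. Of these, 37 of 39 nuclear genes were positive in IR against control (median 0.52), against 51.3% of all genes tested. In 18 of them (46.2%) both IR libraries lay above both controls, against 29.8% of all genes tested. Against the control mean, the median of the 39 genes was 0.91 in IR 1 and -0.01 in IR 2. In IR 2, 18 lay above both controls and 17 below both. The median transcript length of the 39 was 732 nt. NDUFA2, an accessory subunit near the NADH-oxidising end (chromosome 2, 142359000 to 142361126), had 35.45 and 35.26 CPM in IR_Pra, 89.18 and 57.19 CPM in IR, and 32.31 and 31.15 CPM in control. Its IR libraries were above the other 4, and it had the highest log2 fold change of the set (1.21 ± 0.28, adjusted p = 0.0581). NDUFB7, an accessory subunit on the intermembrane face, had 53.25 and 55.3 CPM in IR_Pra, 143.3 and 85.24 CPM in IR, and 58.95 and 55.09 CPM in control (1.0 ± 0.30, adjusted p = 0.0912). NDUFA4, named for complex I and found with cytochrome c oxidase, had 64.1 and 80.35 CPM in IR_Pra, 143.1 and 101.9 CPM in IR, and 61.67 and 66.89 CPM in control (0.93 ± 0.27, adjusted p = 0.0853).

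The core subunits varied. NDUFS8, which carries iron-sulphur clusters, had 107.2 and 116.1 CPM in IR_Pra, 236.4 and 158.2 CPM in IR, and 110.1 and 105.8 CPM in control, and NDUFV1, which binds NADH and flavin, had a log2 fold change of 0.77 ± 0.33 (adjusted p = 0.183). NDUFS1, the large iron-sulphur subunit, had 85.17 and 72.53 CPM in IR_Pra, 65.61 and 63.53 CPM in IR, and 59.37 and 68.57 CPM in control, so its IR libraries lay between the controls. NDUFA12, an accessory subunit, went the other way from most, with 71.5 and 80.11 CPM in IR_Pra, 70.9 and 37.52 CPM in IR, and 69.12 and 83.32 CPM in control (-0.49 ± 0.34, adjusted p = 0.374).

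In complex II, which oxidises succinate, SDHD, a membrane anchor, was the only nuclear gene lower in both IR libraries than in both controls. SDHD had 138.2 and 123.2 CPM in IR_Pra, 113.1 and 59.6 CPM in IR, and 125.1 and 151 CPM in control, and with -0.68 ± 0.35 it had the lowest log2 fold change among nuclear genes (adjusted p = 0.246). The flavoprotein SDHA had 309.7 and 298.7 CPM in IR_Pra, 527.2 and 224 CPM in IR, and 294 and 348.3 CPM in control. The iron-sulphur subunit SDHB had 138.9 and 163.4 CPM in IR_Pra, 231.6 and 106.3 CPM in IR, and 141.1 and 188.1 CPM in control. In both, IR 1 was the highest library and IR 2 the lowest, and the fold changes of SDHA, SDHB and the second anchor SDHC lay between 0.04 and 0.23. UQCR10 and UQCRB, small subunits of complex III, had log2 fold changes of 0.56 ± 0.40 and 0.03 ± 0.37. CYCS, cytochrome c, which carries electrons to complex IV, had 129.4 and 114 CPM in IR_Pra, 203.5 and 62.47 CPM in IR, and 147.8 and 118.3 CPM in control.

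Among the complex IV isoforms, COX7A1, the form known from heart and skeletal muscle, had 14.75 and 15.62 CPM in IR_Pra, 44.73 and 29.61 CPM in IR, and 19.86 and 15.42 CPM in control. Its IR libraries lay above the other 4 (1.08 ± 0.30, adjusted p = 0.0785). COX7A2, the widely expressed form, had 86.87 and 94.37 CPM in IR_Pra, 151.4 and 54 CPM in IR, and 107.1 and 93.86 CPM in control. The ratio of COX7A1 to COX7A2 counts was 0.170 and 0.166 in IR_Pra, 0.295 and 0.548 in IR, and 0.185 and 0.164 in control. Smooth muscle markers were also highest in IR, at 34100 and 72920 CPM. Summed striated muscle markers, 11 of 12 found, were 218.8 and 168.7 CPM in IR_Pra, 413.4 and 453.9 CPM in IR, and 80.61 and 175 CPM in control. Of the 9 tested, 2 rose in IR against control, the myosin heavy chains MYH1 and MYH2, beside 3.39% of all genes tested. The calls of MYH1 and MYH2 share the limit given for ND4L. The part of either muscle list in the COX7A1 values was not tested. NDUFA4L2 had 3.13 and 4.24 CPM in IR_Pra, 8.12 and 8.68 CPM in IR, and 4.61 and 3.26 CPM in control (1.10 ± 0.35, adjusted p = 0.105). COX6A1, the widely expressed COX6A form, had 195 and 223.5 CPM in IR_Pra, 382.2 and 110.7 CPM in IR, and 209.3 and 207.6 CPM in control.

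In complex V, leaving out ATP5S and ATP5SL, 12 of 15 nuclear subunits were positive in IR against control (median 0.32), against 51.3% of all genes tested. ATP5A1 and ATP5B, the alpha and beta subunits of the catalytic head, had log2 fold changes of 0.30 ± 0.38 and 0.12 ± 0.39. ATP5I, the e subunit that helps pair the enzyme, had 83.43 and 90.97 CPM in IR_Pra, 227.6 and 118 CPM in IR, and 84.75 and 79.4 CPM in control (1.07 ± 0.35, adjusted p = 0.107). The c-ring is encoded by ATP5G1, ATP5G2 and ATP5G3, which give the same mature protein. ATP5G1 had a log2 fold change of 0.90 ± 0.45, ATP5G3 of 0.39 ± 0.37 and ATP5G2 of -0.29 ± 0.34, and none passed. A second locus annotated as like ATP5G1 had 7 and 267 counts in IR_Pra, 16 and 402 counts in IR, and 13 and 12 counts in control. The sequences of the locus and of ATP5G1 were not compared, and whether reads were split between them was not tested.

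**Figure D4:**
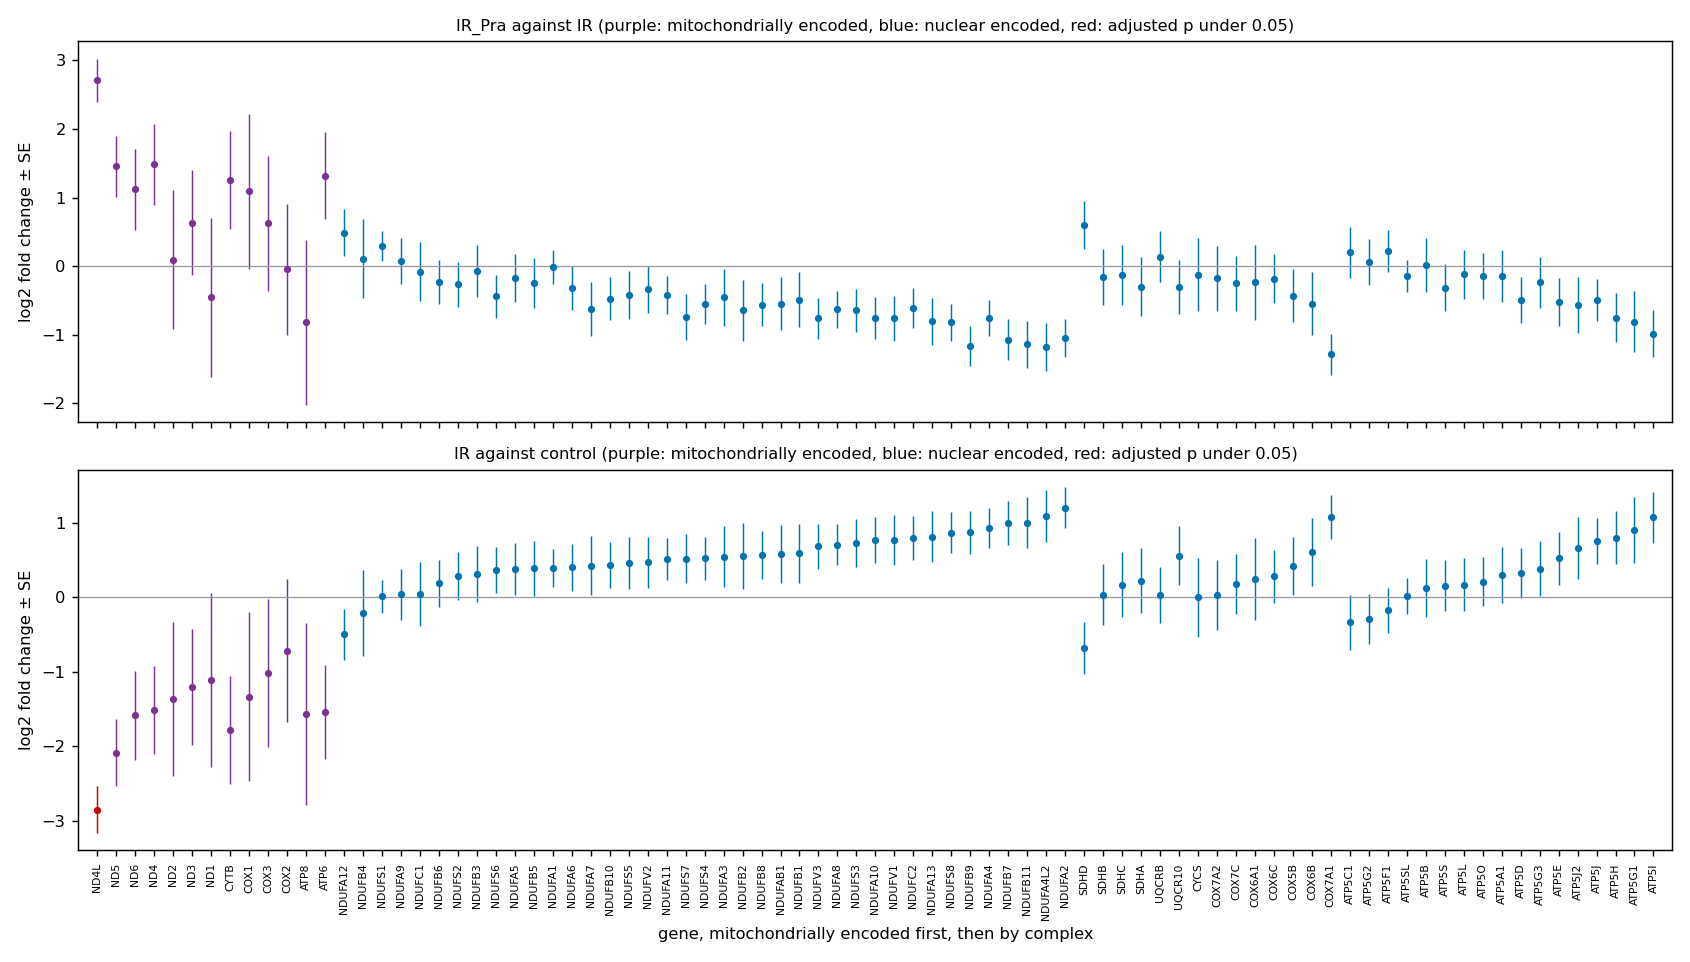
Log2 fold change ± SE of every gene tested, for IR_Pra against IR (top) and IR against control (bottom), with mitochondrially encoded genes at the left. ND4L in the lower panel (-2.85 ± 0.32) is the only point that passed the test; the 2 panels share the IR libraries, so their mirrored shape is no independent evidence.

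The comparison of IR_Pra with IR asked how the same genes stood when pravastatin was given after irradiation. It shares the IR libraries with the comparison above, and in it the values of IR 1 and IR 2 differed widely. None of the 13 mitochondrial genes passed, beside 0.00550% of all genes tested; 3 had an unadjusted p under 0.05, all higher, against 24.5% of all genes tested in either direction and 11.7% higher, and DESeq2 called 3 higher, against 7.32%. Their median log2 fold change was 1.09, with 10 of 13 positive, against 49.1% of all genes tested, and a range from -0.82 for ATP8 to 2.71 for ND4L, beside a median of -0.02 over all genes tested. In 6 of 13 both IR_Pra libraries lay above both IR libraries, against 27.3% of all genes tested.

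ND4L had a log2 fold change of 2.71 ± 0.31 in IR_Pra against IR (adjusted p = 0.0754), which did not pass. Over 18 alternative settings the fold change ran from 2.46 to 2.91. These settings reuse the same libraries, so the narrow range is no independent evidence. The adjusted p varied widely, with 1.08e-14 in DESeq2 and 0.088 in limma voom. With the 4 libraries of this comparison alone, the adjusted p of the edgeR test was 0.176. ND5 had 1.46 ± 0.44 (adjusted p = 0.129) and ND4 1.48 ± 0.59 (adjusted p = 0.198). For these 3 genes and for ATP6, CYTB and COX1, both IR_Pra libraries were above both IR libraries. Without IR 1 the mitochondrial median was 2.07 and 7 genes were called higher, against 9.88% of all genes in that fit. Without IR 2 it was 0.59 and ND4L alone was called higher, against 6.58%.

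None of the 70 nuclear genes passed in IR_Pra against IR, beside 0.00550% of all genes tested; 11 had an unadjusted p under 0.05, all lower, against 12.8% of all genes tested, and DESeq2 called 5 lower, against 8.46%. The median log2 fold change was -0.42, with 60 of 70 negative, and in 21 genes both IR_Pra libraries lay below both IR libraries, against 26.6% of all genes tested. With the length trend removed the median was -0.12, with 41 of 70 negative. On log2(FPKM + 1), which has no TMM scaling, it was -0.18, with 43 of 70 negative, beside 0.07 over all genes. COX7A1 had the lowest log2 fold change (-1.29 ± 0.30, adjusted p = 0.094) and SDHD the highest among nuclear genes (0.60 ± 0.35, adjusted p = 0.337). NDUFB9, an accessory subunit of the membrane arm, had 101.1 and 97.1 CPM in IR_Pra, 270 and 174.2 CPM in IR, and 112.6 and 130.1 CPM in control (-1.16 ± 0.29, adjusted p = 0.0993 for IR_Pra against IR). With IR 1 left out the nuclear median was 0.21, with 6 genes called higher and 1 lower, against 9.88% and 9.85% of all genes in that fit. With IR 2 left out it was -0.80, with 30 called lower, against 5.78%, so the direction of the nuclear genes depended on which IR library was used.

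The comparison of IR_Pra with control asked how far treated irradiated tissue stood from unirradiated tissue. None of the 13 mitochondrial or 70 nuclear genes passed, none had an unadjusted p under 0.05, and DESeq2 and limma voom called 0 of them. Over all genes tested edgeR and limma voom called 0% and DESeq2 0.412%. An unadjusted p under 0.05 was found for 3.42% of all genes tested, 2.40% higher and 1.03% lower. All 13 mitochondrial genes had negative log2 fold changes (median -0.53), from -2.38 for ATP8 to -0.02 for ND4, and in 7 both IR_Pra libraries lay below both controls, against 20.0% of all genes tested. Without control 1 the mitochondrial median was -0.14, and without control 2 it was -0.85. The nuclear median was 0.03, with 41 of 70 positive against 50.6% of all genes tested, and -0.02 with the length trend removed. Values ran from -0.29 for NDUFB9 to 0.38 for NDUFA1, an accessory subunit of complex I. With 2 animals a group, a missed threshold does not show that these groups were alike.

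Genes that serve the mitochondrial system outside the complexes were read from lists. Of 28 genes tested for mitochondrial transcription and replication, 0 rose and 1 fell in IR against control, a share near the 2.68% of all genes that fell. MTERF2, a mitochondrial transcription-factor family member, had 3.40 and 1.59 CPM in IR_Pra, 0.11 and 0.26 CPM in IR, and 2.89 and 1.67 CPM in control, and fell by 3.55 ± 0.70 (adjusted p = 0.0473). TFAM, which packages mitochondrial DNA, had 11.74 and 6.55 CPM in IR_Pra, 2.45 and 7.34 CPM in IR, and 9.21 and 7.95 CPM in control (-0.81 ± 0.57, adjusted p = 0.384). POLRMT, the mitochondrial RNA polymerase, and TWNK, the mitochondrial helicase, had log2 fold changes of 0.13 ± 0.21 and -0.41 ± 0.27.

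Of 14 regulators of mitochondrial biogenesis, 0 rose and 1 fell, beside 2.68% of all genes that fell, and 5 had an unadjusted p under 0.05, all lower, against 13.8% of all genes tested. PPARA, a nuclear receptor for fatty acid oxidation, had 12.28 and 7.39 CPM in IR_Pra, 1.49 and 1.31 CPM in IR, and 16.9 and 12.35 CPM in control, and fell by 3.39 ± 0.40 (adjusted p = 0.0359). The coactivator PPARGC1A had 21.43 and 11.85 CPM in IR_Pra, 7.13 and 7.63 CPM in IR, and 22.35 and 16.43 CPM in control, and its IR libraries were the lowest (-1.39 ± 0.37, adjusted p = 0.0723). ESRRA, its nuclear receptor partner, had -1.09 ± 0.37 (adjusted p = 0.12) and NRF1, an activator of nuclear respiratory genes, -0.43 ± 0.25 (adjusted p = 0.298).

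Of 76 mitochondrial ribosome genes, 2 rose and 0 fell in IR against control, which is not above the 3.39% of all genes that rose. Their median was 0.46, with 63 positive against 51.3% of all genes tested. An unadjusted p under 0.05 was found for 22 (28.9%), all higher, against 16.4% of all genes tested. In 44 (57.9%) both IR libraries lay above both controls and in 2 below, against 29.8% and 30.0%. MRPS26, a small-subunit protein, had 38.46 and 44.77 CPM in IR_Pra, 93.01 and 100.8 CPM in IR, and 44.44 and 42.52 CPM in control, and rose by 1.16 ± 0.21 (adjusted p = 0.0443). MRPL20, of the large subunit, rose by 1.10 ± 0.22 (adjusted p = 0.0485). With the length trend removed, the ribosome median was 0.22 in IR 1 and 0.07 in IR 2. Of 29 assembly factors, 17 import genes and 19 genes of the tricarboxylic acid cycle, none passed in IR against control, with 6, 4 and 0 at an unadjusted p under 0.05, all higher, against 16.4% of all genes tested, and their medians were 0.37, 0.10 and -0.14. The calls of MTERF2, PPARA, MRPS26 and MRPL20 shared the limit given for ND4L, since 0 genes passed with any control or IR_Pra library left out.

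**Figure D5:**
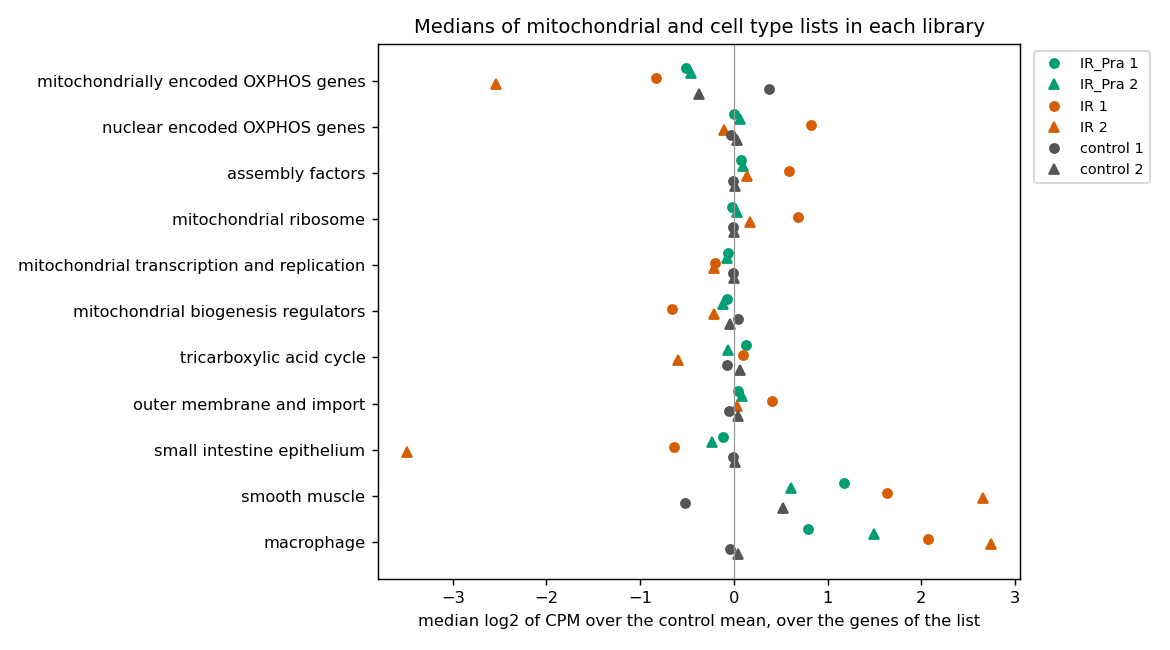
Median log2 ratio of CPM to the control mean over the genes of each list, with 1 point per library coloured by group. The mitochondrially encoded genes and the epithelial markers are both lowest in IR 2 (-2.54 and -3.49), and the nuclear encoded genes and the mitochondrial ribosome are highest in IR 1 (0.83 and 0.68).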

How the data were processed

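RNA was extracted with Trizol, per the labels' protocols. The authors made reads with bcl2fastq 2.20.0, trimmed with Trimmomatic (no version stated), and used HISAT2 2.1.0 and StringTie 2.1.3b, per the submitters' processing notes. GRCh38 is named beside Sscrofa11.1 without a stated role. The authors deposited a read count and an FPKM value per gene and library, per the file headers. The counting tool and strand setting are not stated in the sources used. The 24 entries without a gene name, with 0.00906% to 0.0385% of counts, were left out. Symbols were matched by Entrez ID to RefSeq (Sscrofa11.1), which found all 85 genes.

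Counts were tested in R 4.3.3 with edgeR 4.0.16 (filterByExpr by group, TMM, 1 quasi-likelihood fit of all 6 libraries, two-sided F test, 3 residual degrees of freedom). Adjusted p is Benjamini-Hochberg over 18197 genes in each of 3 comparisons, which share groups. SE was derived from F. edgeR estimated a common biological coefficient of variation of 0.431. Alternatives were DESeq2 1.42.0, limma 3.58.1 (voom, and trend on log2(FPKM + 1)), other scalings and filters, removal of the length trend, a replicate block and leaving out each library.

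The genes and lists were chosen with earlier results of these data known. Named genes were all mitochondrial genes, fixed core subunits and isoform sets, up to 4 per complex and per list with the smallest p, and the extreme fold changes; NDUFA12 and the ATP5G1-like locus were chosen after their values were seen.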

Additional observations from a re-analysis of the deposited data

How the results depend on the processing

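Groups of 2 animals limit each call, and a group left with 1 library was assumed to spread like the other groups. In IR against control, the count of mitochondrial genes past the threshold (1) was 6 with DESeq2, 2 with limma voom, 2 with the length trend removed, 2 with at least 5 CPM in 2 libraries, 0 with the 4 libraries alone and 2 at an adjusted p under 0.1, and 0 to 11 with 1 library left out. The nuclear count (0) was 5, 1 and 4 with DESeq2, the 5 CPM filter and the 0.1 threshold, and 0 to 36 with 1 library left out. Over all genes, the main fit called 1103 of 18197. The count was 3452 at 0.1, 977 with the length trend removed and 1249 with the 5 CPM filter. At 0.1, neither the mitochondrial nor the nuclear share exceeded that of all genes tested. The medians ran from -2.54 to -0.84 (mitochondrial) and from -0.11 to 0.82 (nuclear). In IR_Pra against IR, the mitochondrial count (0) was 3 with DESeq2, 1 at 0.1 and 0 to 7 with 1 library left out, and the nuclear count (0) was 5, 2 and 0 to 30. At 0.1, 1328 of the 18197 genes tested passed in IR_Pra against IR, so the mitochondrial share was near that of all genes and the nuclear share below it. The mitochondrial and nuclear medians of IR_Pra against IR ran from 0.59 to 2.07 and from -0.80 to 0.21. In IR_Pra against control no count moved. Without IR 1, COX7A2 (-0.90) and COX6A1 (-0.92) were called lower in IR than in control, and COX6A1 (0.92) and CYCS (0.96) higher in IR_Pra than in IR, each opposite in sign to the fit of all libraries; without IR 2, COX6A1 had 0.87 in IR against control, and COX6A1 had -0.87 and CYCS -0.74 in IR_Pra against IR. The cause was not tested. ND4L had an adjusted p of 0.0995 with the 4 libraries alone. With the replicate number as a block it had 0.0777 and the mitochondrial count was 0; the numbers name separate animals, with same-number correlations of 0.0812, -0.0909 and -0.1104, and pair nothing. Scaling to library size alone gave a median over all genes of 0.14 in IR_Pra against IR, where the nuclear median was -0.23. As a share of summed FPKM, mitochondrial genes held 9.47% and 9.93% in IR_Pra, 6.19% and 2.77% in IR, and 15.4% and 10.5% in control. No mitochondrial ribosomal RNA is among the genes used, so that planned denominator could not be applied; adding the entries without a gene name, chosen after seeing the data, moved no share beyond counting error.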

Other observations

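Another 20 subunits of complexes III and IV are listed by the annotation under a LOC identifier with their product name, and 17 of them passed the filter. None passed the edgeR test in IR against control, 3 had an unadjusted p under 0.05 (1 higher and 2 lower) against 30.2% of all genes tested, and the median log2 fold change was 0.26. The 2 lower ones, LOC100519366 and LOC110256108, had at most 1.238 CPM in any library. Cytochrome c oxidase subunit 4 isoform 2 (LOC110257420), known from lung and low oxygen, had 2.97 and 6.28 CPM in IR_Pra, 11.28 and 9.42 CPM in IR, and 4.99 and 3.001 CPM in control, with the IR libraries highest (1.37, adjusted p = 0.123). Isoform 1 (LOC100624067) had 592.2 and 689 CPM in IR_Pra, 1365 and 669.7 CPM in IR, and 723.8 and 755.1 CPM in control. Cytochrome c1 (LOC100525869) had 238.7 and 264.3 CPM in IR_Pra, 472.4 and 193.8 CPM in IR, and 250.7 and 258.4 CPM in control. Both isoform 1 and cytochrome c1 were highest in IR 1 and lowest or next to lowest in IR 2.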
